A study of Homo sapiens with 8 samples.

Results

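The NKG2D ligands are cell-surface proteins of the MHC class I-like family, and their 7 genes here were ULBP1, ULBP2, ULBP3, MICA, MICB, RAET1E and RAET1G. Every probe set whose platform annotation names at least 1 of these genes was kept, which gave 24 of the 49293 probe sets tested, and the 7 genes are among 18132 that have a probe set of their own. The family was picked after earlier results of these data had placed ULBP1 among the genes that differed most between the conditions, so the members' differences between the conditions are given as a description. DU145 cells are an established human line from a metastatic prostate carcinoma, and Aldrin is a chlorinated insecticide. The Aldrin-exposed cells were kept for 50 days with 1 µM Aldrin and 0.01% DMSO, the solvent, and the Non-exposed cells were DU145 cells without Aldrin, sampled at the end of the same 50 days, for which no solvent is stated in the sources used here. Total RNA of each condition was hybridised to 4 arrays, and neither the labels nor the methods say that replicates were separate cultures, so the p-values rest on differences among these arrays, which may be technical.

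NKG2D is an activating receptor of natural killer cells and of some T cells, which signals through the adaptor HCST. Its ligands are scarce on most healthy cells and appear on stressed, infected or transformed cells, and a cell that shows them can be killed. MICA and MICB span the membrane and lie beside HLA-B in the MHC, while the ULBP and RAET1 genes lie together on the other arm of chromosome 6. ULBP1, ULBP2 and ULBP3 are held in the membrane by a glycosylphosphatidylinositol (GPI) anchor, and tumour cells can also shed ligands, which lowers what NKG2D can see. The arrays measured transcripts, and the amount of ligand on the cell surface was not measured.

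The 250 bases before the transcription starts of ULBP1, ULBP2, MICA and MICB are shown because they hold letters that these members share and the other members lack. The sequences are from RefSeq (GRCh38.p14), read 5′ to 3′. Capitals mark the letters TGACG, the core of the cAMP response element bound by ATF and CREB factors, on either strand in ULBP1 and ULBP2, and the heat shock element GAANNTTC in MICA and MICB.
ULBP1 (chr6:149963693-149963942, + strand): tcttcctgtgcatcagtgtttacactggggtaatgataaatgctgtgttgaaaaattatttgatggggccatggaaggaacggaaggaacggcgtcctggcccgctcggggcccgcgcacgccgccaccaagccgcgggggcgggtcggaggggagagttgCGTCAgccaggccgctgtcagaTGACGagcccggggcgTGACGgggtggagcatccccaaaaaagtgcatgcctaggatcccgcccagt
ULBP2 (chr6:149941764-149942013, + strand): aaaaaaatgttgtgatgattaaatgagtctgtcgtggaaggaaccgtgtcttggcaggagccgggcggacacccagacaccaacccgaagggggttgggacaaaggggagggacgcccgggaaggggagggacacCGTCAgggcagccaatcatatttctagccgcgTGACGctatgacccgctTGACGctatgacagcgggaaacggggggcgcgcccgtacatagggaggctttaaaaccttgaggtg
MICA (chr6:31403345-31403594, + strand): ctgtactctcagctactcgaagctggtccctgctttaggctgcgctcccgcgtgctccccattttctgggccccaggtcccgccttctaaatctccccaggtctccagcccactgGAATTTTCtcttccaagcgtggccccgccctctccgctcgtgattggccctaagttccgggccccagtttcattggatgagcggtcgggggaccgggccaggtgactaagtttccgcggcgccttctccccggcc
MICB (chr6:31497895-31498144, + strand): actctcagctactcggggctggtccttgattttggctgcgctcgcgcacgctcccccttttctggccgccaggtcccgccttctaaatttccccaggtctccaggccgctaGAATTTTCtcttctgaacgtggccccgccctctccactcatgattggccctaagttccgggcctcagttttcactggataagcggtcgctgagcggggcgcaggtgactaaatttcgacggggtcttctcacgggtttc
Letters were searched on both strands of the window from 250 bases before to 50 after the start. TGACG occurred 3 times in the windows of ULBP1 and ULBP2 and not in those of the other members, and 24.6% of 35116 promoter windows in the RefSeq table held it at least once and 1.4% at least 3 times. GAANNTTC read GAATTTTC in both MIC genes and was in 6.77% of all windows. The windows of MICA and MICB were 77.8% identical, while those of ULBP1 and ULBP2 were 44.2% identical. ULBP3 held the Sp1 box GGGCGG 6 times, with a share of 2.86% of windows that hold it as often. Its window was 70.7% G or C, beside a median of 58.7% over all windows, and the share does not allow for this. The full element TGACGTCA was not found in any window of a member and was in 1.85% of all. A match of letters describes the window and does not show that a factor binds there.

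ULBP1 had the higher mean in Aldrin-exposed cells at each of its 3 probe sets. At 11730617_at the Aldrin-exposed arrays read 7.50, 7.61, 7.71 and 7.49 and the Non-exposed arrays 7.12, 6.91, 7.09 and 7.32, as log2 intensities. All exposed arrays lay above all Non-exposed arrays, with means of 7.57 ± 0.10 and 7.11 ± 0.17 (SD, n = 4), a log2 difference of 0.46 (standard error 0.10) or a fold change of 1.38. At 11730618_x_at they read 7.13, 7.22, 7.50 and 7.34 against 7.02, 6.82, 7.05 and 7.13, so that the lowest exposed and the highest Non-exposed array were the same after rounding, with the exposed array the higher before it. At 11730619_at they read 8.12, 8.27, 8.42 and 8.35 against 7.59, 7.87, 8.30 and 8.14, and the conditions overlapped. The log2 differences of these probe sets were 0.29 (standard error 0.10) and 0.32 (standard error 0.15). ULBP1 is the gene that brought the family into view, so no test is read from these values, and none of its probe sets passed limma at an adjusted p under 0.05 (adjusted p = 1 for each), a threshold that 0.00203% of all probe sets passed.

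ULBP2 had the higher mean in exposed cells at its 3 probe sets, of which only 1 carried much signal. At 11726552_x_at the exposed arrays read 6.21, 6.21, 6.29 and 6.07 and the Non-exposed arrays 5.76, 6.06, 6.09 and 6.06, with a log2 difference of 0.20 (standard error 0.10). The conditions overlapped only at the lowest exposed array, and Non-exposed replicate 1 lay below all others. The other ULBP2 probe sets, 11762919_at and 11762920_x_at, read 4.12 to 4.28 on every array, below the median of the arrays' background control probe sets, which was 4.78 to 5.02. These controls hold probes without an intended human target, with 3 to 25 bases G or C, and reach 11.1 to 11.9 at the highest G and C content. Since the G and C content of the members' probes is not known here, they give only a coarse floor. Over the 24 probe sets, 21 lay above the median of the controls on all 8 arrays, and none lay above the highest control on all 8. A probe set close to that median, 11760837_at of RAET1E, was at percentile 15.1 of all probe sets by mean level. Most probe sets of the array thus read higher, and the count of 21 is not read as particular to the members. MICB at 11750723_x_at lay above the highest control on 7 arrays and MICA at 11738887_s_at on 1.

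Several probe sets cannot be given to a single ligand, because the genes resemble each other. RAET1L, the closest relative of ULBP2, shares 1 probe set with ULBP2 alone, 11726551_s_at. This probe set read 7.23, 7.33, 7.55 and 7.02 in exposed and 6.74, 7.10, 6.90 and 7.30 in Non-exposed cells, a log2 difference of 0.27 (standard error 0.15). The probe set of RAET1L alone was near the floor, at 4.28 ± 0.05 and 4.33 ± 0.13. A probe set for ULBP1, ULBP3 and the pseudogene RAET1K, 11743218_s_at, read 8.51, 8.83, 8.79 and 8.60 against 8.60, 8.32, 8.45 and 8.50, a log2 difference of 0.21 (standard error 0.10). The 3 probe sets shared by ULBP2, RAET1L and RAET1G had log2 differences of -0.09, -0.07 and 0.01, with overlap of the conditions in each. In all, 19 of the 24 probe sets name 1 gene and 5 name several. Some of the 19, such as 11726552_x_at of ULBP2, are of the _x_at type and may also read other transcripts.

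MICA and MICB, the MHC-encoded ligands, differed little between the conditions. MICA had log2 differences of -0.01, -0.01 and -0.07 at its 3 probe sets, with standard errors from 0.12 to 0.19. Its probe set 11738887_s_at read 11.46, 11.33, 10.82 and 11.21 in exposed and 11.47, 11.07, 11.51 and 10.80 in Non-exposed cells, and the spread within each condition was far larger than the difference between them. MICB had the higher mean in exposed cells at all 4 probe sets, with log2 differences of 0.01, 0.09, 0.10 and 0.22. The last of these, at 11733273_a_at, came from 9.33, 9.50, 9.42 and 9.46 against 9.08, 9.12, 9.22 and 9.39 (standard error 0.09), where only Non-exposed replicate 4 reached into the range of the exposed arrays. MICA and MICB are similar in sequence, and _x_at probe sets hold probes that can match other transcripts, so some of these probe sets may partly read the other gene.

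RAET1E, which encodes ULBP4, and RAET1G, which encodes ULBP5, did not stand apart between the conditions. RAET1E had log2 differences of -0.02 (standard error 0.08) and 0.02 (standard error 0.20). Its probe set 11760837_at read 4.61 to 5.64 in exposed cells and 4.86 to 5.23 in Non-exposed cells, and lay above the median of the background controls on 6 of the 8 arrays. RAET1G read 7.92, 7.91, 7.91 and 7.79 against 7.84, 8.0, 8.08 and 8.06 at its 1 probe set, a log2 difference of -0.11 (standard error 0.08) with overlap. Its difference had the opposite sign to those of ULBP1 and ULBP2, which lie in the same cluster.

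**Figure D1:**
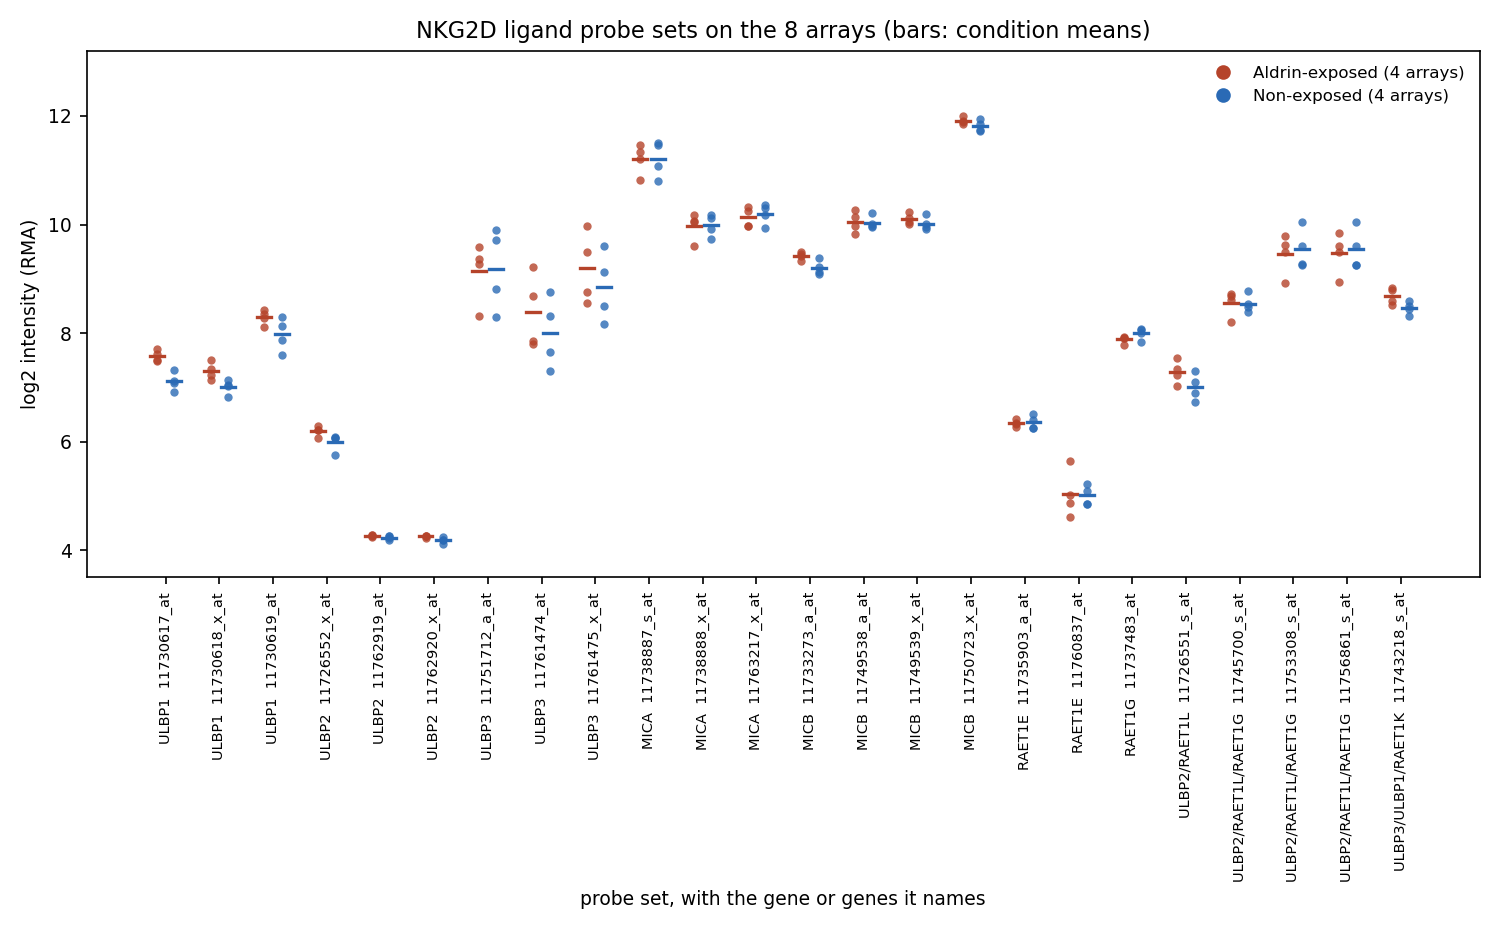
Log2 intensity of each of the 24 probe sets on the 4 Aldrin-exposed and the 4 Non-exposed arrays, with points for arrays and bars for the condition means. The conditions are clear of each other at 11730617_at of ULBP1, meet at 11730618_x_at and overlap at the other probe sets, and the ULBP3 probe sets scatter most within a condition.

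Across the family the mean of exposed cells was the higher in 16 of the 24 probe sets and the lower in 8, with a median log2 difference of 0.05, while the median over all probe sets was 0.00. None of the 24 passed limma at an adjusted p under 0.05, and 1 of the 49293 probe sets did, which measures PXDN. At an unadjusted p under 0.05 there were 3 members, 2 of ULBP1 and 1 of MICB, all with the higher mean in exposed cells, beside 3.07% of all probe sets in either direction and 1.22% in this direction. At an unadjusted p under 0.01 there was 1 member, 11730617_at of ULBP1, beside 0.641%. The exposed arrays lay clear above the Non-exposed arrays in 2 of the 24 (8.33%), both of ULBP1, beside 0.643% of all probe sets, and clear below in none, beside 1.35%. Because the family was chosen on this contrast, nothing is read from these shares. The annotation ties 11730617_at and 11730618_x_at to the same transcript record, so they are not separate observations of ULBP1. The ULBP1 probe set tied to another record, 11730619_at, overlapped.

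**Figure D2:**
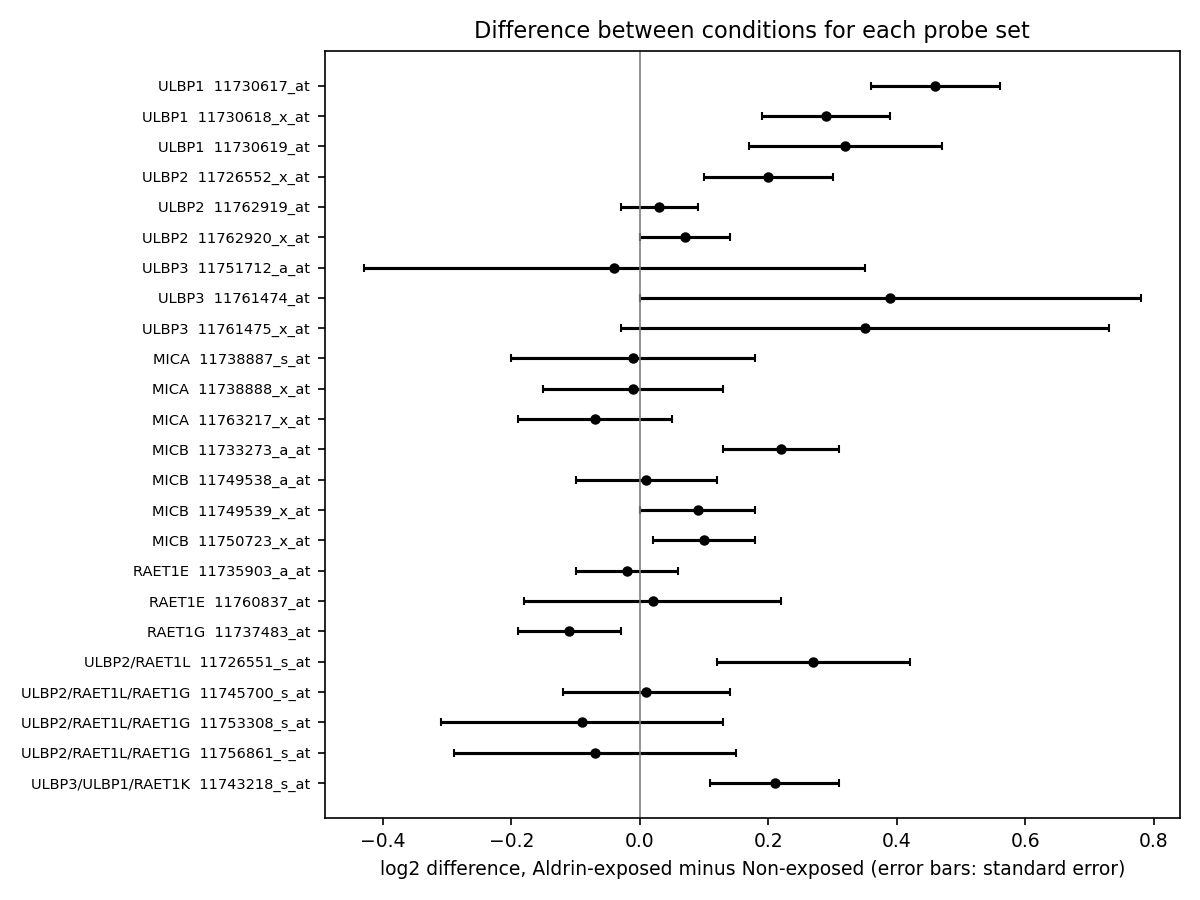
Log2 difference of each probe set, Aldrin-exposed minus Non-exposed, with standard errors from limma as error bars. ULBP1 lies between 0.29 and 0.46, MICA between -0.07 and -0.01, and the ULBP3 probe sets have the widest error bars.

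ULBP3 was the most variable member, and its probe sets ran against each other from array to array. At 11751712_a_at the exposed arrays read 9.28, 9.59, 8.31 and 9.36 and the Non-exposed arrays 9.90, 8.81, 9.72 and 8.29. At 11761474_at they read 7.80, 7.86, 9.22 and 8.69 against 7.65, 8.31, 7.30 and 8.75. The arrays lowest at the former, Aldrin-exposed replicate 3 and Non-exposed replicate 4, were the highest in their conditions at the latter. The same order appeared at 11761475_x_at, with 8.56, 8.75, 9.98 and 9.50 against 8.50, 9.12, 8.16 and 9.60. The annotation ties 11751712_a_at to another transcript record than the other pair. Their SD within conditions was 0.67, 0.67 and 0.65, at percentile 99.7 of all probe sets, where the median was 0.16. This spread does not use the difference between the conditions that chose the family.

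**Figure D3:**
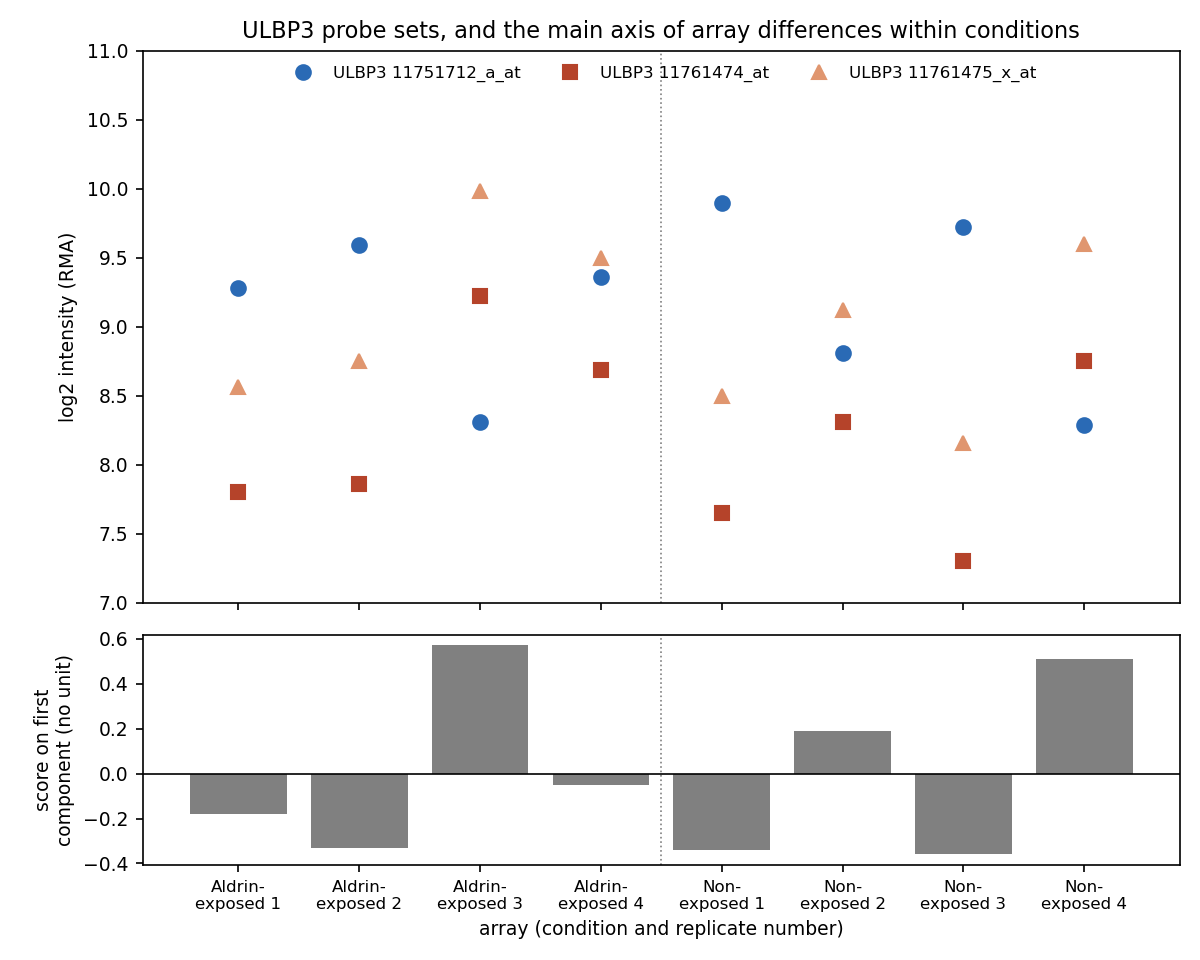
Log2 intensity of the 3 ULBP3 probe sets on each array (upper panel) and the array's score on the first principal component of the deviations from condition means (lower panel). Where the score is highest, on Aldrin-exposed replicate 3 and Non-exposed replicate 4, 11751712_a_at is lowest at 8.31 and 8.29.

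With condition means removed, 11751712_a_at and 11761474_at had a correlation of -0.87 over the 8 arrays, given as a description of arrays that share a condition mean. Among pairs of probe sets of 1 gene that were both in the top 5% for spread, 549 pairs of 350 genes, the median correlation was 0.96, and 9 pairs (1.64%), that of ULBP3 included, were as low as this. Arrays differed from each other within conditions along a main axis, the first principal component, which held 58.3% of the variance within conditions over all probe sets. The deviations of the ULBP3 probe sets had correlations of -0.98, 0.94 and 0.93 with it, those of MICA -0.97, -0.94 and -0.67, and those of ULBP1 0.45, 0.49 and 0.32. An absolute correlation of at least 0.8 was found for 8 of the 24 members (33.3%) and for 27.7% of all probe sets. Background controls of 20 to 25 G or C also differed between arrays, at 9.85, 9.44, 9.40 and 9.89 in exposed and 9.96, 9.52, 10.10 and 9.63 in Non-exposed cells, and their part in the ULBP3 pattern was not tested beyond the fit that follows. A further fit took as covariate each array's mean of these controls minus its mean of controls with 3 to 10 G or C. In it the log2 difference of 11751712_a_at moved from -0.04 to 0.18 and that of 11761474_at from 0.39 to 0.19. The log2 difference of 11730617_at of ULBP1 moved from 0.46 to 0.44. Without Aldrin-exposed replicate 3 the ULBP3 values were 0.23 and 0.12, and without Non-exposed replicate 4 they were -0.34 and 0.64. In the fit of all arrays they were -0.04 (standard error 0.39) and 0.39 (standard error 0.39).

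**Figure D4:**
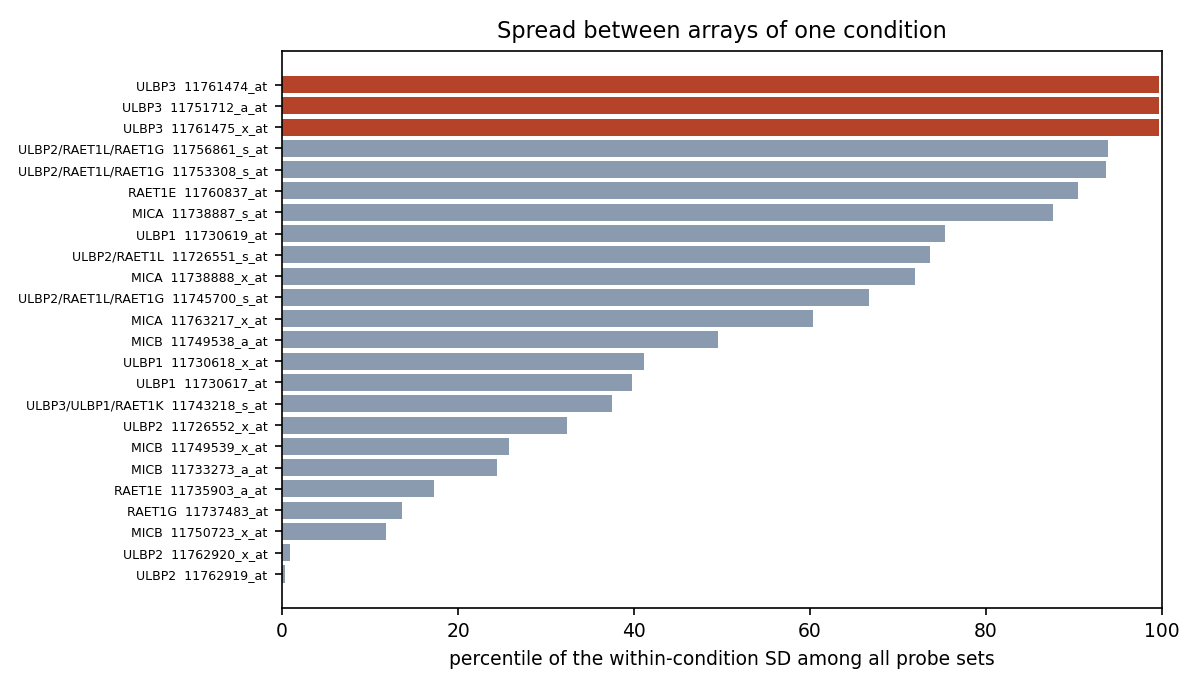
Percentile of each probe set's SD within conditions among the 49293 probe sets. ULBP3 is at 99.7 for all 3 probe sets, while the ULBP2 probe sets near the floor are at 0.3 and 0.9.

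On the receptor side, HCST, the adaptor of NKG2D, read 8.75, 8.60, 9.18 and 9.33 in exposed and 8.04, 8.50, 8.78 and 9.29 in Non-exposed cells, with overlap (log2 difference 0.31, standard error 0.26, adjusted p = 1). The gene of the receptor, KLRK1, shares its probe sets with the readthrough transcript KLRC4-KLRK1, and these had means of 6.03 against 6.02 and 4.44 against 4.40, the latter below the median of the controls on every array. TYROBP, an adaptor that carries NKG2D in mouse but not in human cells, read 6.96 ± 0.34 against 6.73 ± 0.41. Its 2 probe sets had log2 differences of -0.09 and 0.23. Markers of natural killer and T cells, 17 genes such as PTPRC, NKG7 and GNLY, read between 4.51 and 8.25, and their summed intensity was 1292 to 1413 in exposed and 1342 to 1514 in Non-exposed cells. GNLY, which encodes granulysin, had the smallest p of this list, at 7.10 ± 0.13 against 7.30 ± 0.07 (adjusted p = 1). All exposed arrays lay below all Non-exposed arrays, with 7.22 against 7.23 at the closest, as in 1.35% of all probe sets. The 5 probe sets of GNLY had log2 differences from -0.20 to -0.01. The epithelial markers KRT8, KRT18, KRT19 and EPCAM had means over all arrays of 11.41 to 12.97, and exposed cells were the lower in mean for all 4 (median log2 difference -0.12, adjusted p = 1 for each). Their summed intensity was 17279 to 20744 in exposed and 19657 to 22727 in Non-exposed cells, and its part in the ligand values was not tested. The prostate luminal markers KLK2, KLK3 and TMPRSS2 had means of 5.59 to 6.28.

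Genes that govern the ligands were described by role, with 1 probe set a gene, the one of highest mean. No gene of these lists passed limma's threshold and none had an unadjusted p under 0.01, beside 0.540% of 18132 genes. Of 9 transcription factors of ligand genes, 5 had the higher mean in exposed cells (median log2 difference 0.06, beside -0.01 over all genes). Among them SP1, which drives MIC and ULBP promoters, read 11.61 ± 0.25 against 11.42 ± 0.30 (adjusted p = 1). Of the DNA damage kinases ATM, ATR, CHEK1 and CHEK2, whose signalling raises ligand levels, 1 was higher and 3 were lower (median -0.06), and ATR had 10.40 ± 0.21 against 10.56 ± 0.19. The chromatin repressors HDAC1, HDAC2, HDAC3 and EZH2 had a median of 0.01, with HDAC1 at 12.26 ± 0.09 against 12.21 ± 0.08. With the mean over all probe sets of a gene their median was -0.02. The probe sets of HDAC1 ran from -0.22 to 0.08 and those of EZH2 from -0.34 to -0.01.

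Downstream of transcription, the mean of exposed cells was the lower in 5 of 6 genes of mRNA processing and decay (median -0.08). Over all genes it was the lower in 9830 of 18132. The median of the list was -0.1 when all probe sets of a gene were averaged, and the probe sets of DROSHA ran from -0.07 to 0.23. RBM4, a splicing regulator that supports ULBP1, read 10.40, 10.47, 10.65 and 10.26 in exposed and 10.51, 10.75, 10.41 and 10.93 in Non-exposed cells, with overlap (log2 difference -0.21, standard error 0.13, adjusted p = 1). The other probe set of RBM4 had a log2 difference of -0.04. Of 7 genes of ligand shedding, 6 had the higher mean (median 0.04), beside 45.8% of all genes. With the mean over all probe sets of a gene the median was 0.01. The probe sets of ADAM17 ran from -0.21 to 0.27, those of MMP2 from -0.14 to 0.04 and those of ADAM9 from 0.05 to 0.46. The exception among the 7 was MMP14, a membrane metalloprotease that cleaves MICA. MMP14 read 8.50 ± 0.15 against 8.69 ± 0.05 and had the smallest p of the list (adjusted p = 1). Of the 5 subunits of the GPI transamidase, which attaches the anchor of ULBP1, ULBP2 and ULBP3, 3 were higher (median 0.02), with PIGS at 12.52 ± 0.14 against 12.35 ± 0.11.

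Ligands that natural killer cells read on a target through other receptors had list medians near that of all genes, with members in both directions. Of 7 ligands of other activating receptors 4 were higher (median 0.08), and CD58, the ligand of CD2, read 9.60 ± 0.28 against 9.37 ± 0.15. The 6 probe sets of CD58 had log2 differences from -0.14 to 0.23. Of 10 ligands of inhibitory receptors 6 were lower (median -0.02). CDH1, or E-cadherin, a ligand of KLRG1, read 9.21, 9.14, 9.57 and 9.29 in exposed and 9.29, 10.06, 9.56 and 10.14 in Non-exposed cells (log2 difference -0.46, standard error 0.19, unadjusted p = 0.0386, adjusted p = 1 by limma), and its other probe set had a log2 difference of -0.67. At the former probe set only Non-exposed replicates 2 and 4 lay above all exposed arrays.

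**Figure D5:**
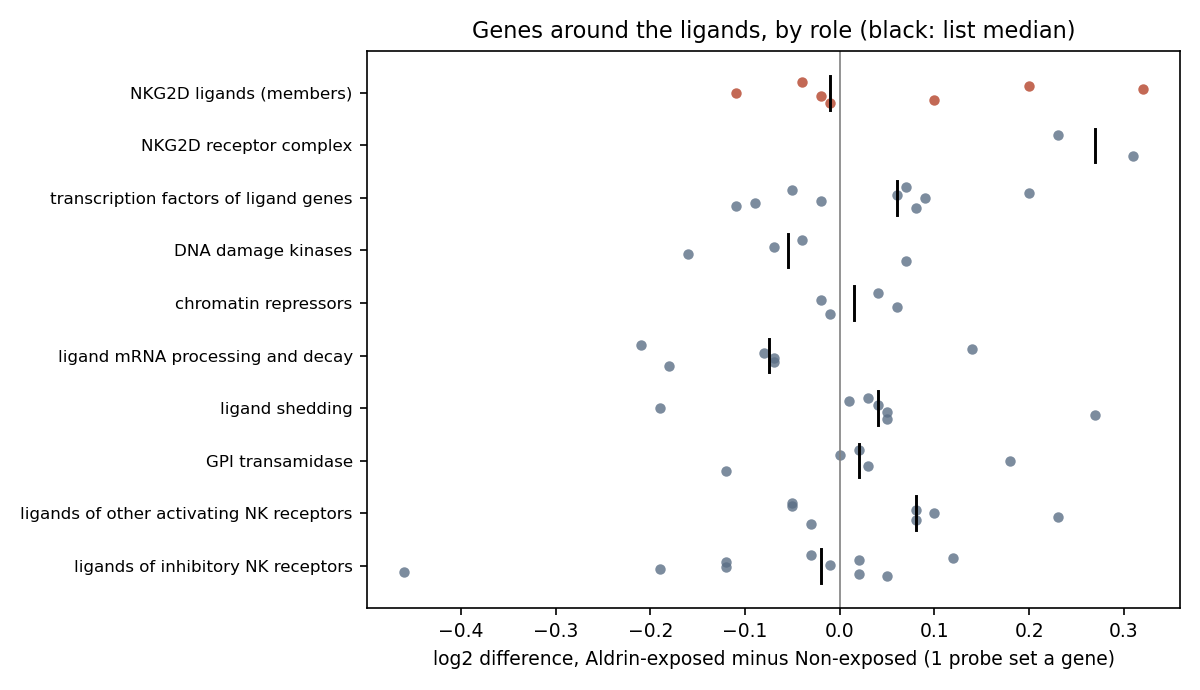
Log2 difference, Aldrin-exposed minus Non-exposed, of the genes around the ligands, grouped by role, with 1 probe set a gene and the list median as a black line. The members are in the top row with values from -0.11 to 0.32, and the medians of the other lists drawn, which leave out the cell type markers, run from -0.08 for mRNA processing and decay to 0.27 for the receptor complex, which holds 2 genes.

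The genes beside the ligand clusters were taken from the RefSeq order, 5 with a probe set on each side. Around the ULBP and RAET1 cluster 8 of 10 neighbours had the higher mean in exposed cells, from -0.18 to 0.22 on the log2 scale, with PLEKHG1 at 0.00 and IYD at 0.01 counted as higher. Around MICA and MICB 8 of 10 had the lower mean, from -0.34 to 0.14, beside 45.8% of all genes with the higher mean. None of these 20 had an unadjusted p under 0.01. The genes most like ULBP1 over the 8 arrays, by correlation with the mean of its probe sets among 18131 genes, were PKIB, an inhibitor of protein kinase A, CYTH3, an exchange factor of ARF proteins, and CA5B, a mitochondrial carbonic anhydrase. Their Pearson correlations were 0.969, 0.960 and 0.959 and their Spearman correlations 0.881, 0.952 and 0.976. They carry the difference between the conditions as well as the spread between arrays, and they were picked as the highest of many, so no test is given. The means were 6.07 and 5.66 for PKIB, 10.40 and 10.19 for CYTH3 and 8.99 and 8.76 for CA5B, with the exposed cells first.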

How the data were processed

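RNA of 4 Aldrin-exposed and 4 Non-exposed DU145 samples was read on single-color Affymetrix arrays, named HG-U219 in the methods. The probe sets were named through the annotation of the platform recorded for the deposited table, and whether that platform is the array the methods name was not settled. From the scans the authors computed RMA values (background correction, quantile normalization, summary over probes), deposited on the log2 scale. The software version is not given in the sources used here. Quantile normalization removes shifts common to an array. The 102 control probe sets among 49395 stayed out of the tests. Genes were joined by the platform's annotation table, which did not list every gene of the lists, and those are not analysed here. The conditions were compared with the moderated two-sided test of limma 3.58.1 (R 4.3.3), adjusted by Benjamini-Hochberg over 49293 probe sets at a threshold of 0.05, a procedure tested on simulated data. The members and lists were chosen with earlier results of these data known. The text names every member, the gene of smallest p of most lists, genes of p under 0.01 and the 3 genes most like ULBP1. Promoters came from RefSeq, and identities from global alignment in Biopython 1.88. The principal component, the pair correlations, and the motifs were chosen after seeing the data. Alternatives covered the variance model, array weights, a replicate block, centring, a further quantile normalization, dim probe sets, the test, each array left out, and, added after the data were seen, a covariate for GC-dependent background and the removal of a pair of arrays. The number of arrays limits the precision.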

Additional observations from a re-analysis of the deposited data

Results flagged for a closer look

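In 5 of 80 groups of 4 arrays, over the 24 member probe sets and the leading gene of each of 16 other lists, 1 array lay far from the other arrays of its condition, which chance gives in about 1 in 20 groups. ULBP2 at 11726552_x_at read 5.76 on Non-exposed replicate 1 and 6.06 to 6.09 on the others. ULBP2 at 11762920_x_at read 4.22 on Aldrin-exposed replicate 1 and 4.27 on the others, near the floor. RAET1G read 7.79 on Aldrin-exposed replicate 4 and 7.91 to 7.92 on the others. ATR read 10.09 on Aldrin-exposed replicate 4 and 10.47 to 10.53 on the others. SP1 read 11.86 on Non-exposed replicate 4 and 11.22 to 11.30 on the others.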

How the results depend on the processing

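No member probe set passed under any of the 17 alternatives. The 1 passing probe set, of PXDN, became 0 with the replicate number as a block, without dim probe sets, by a t-test with unequal variances, with the GC-dependent background as covariate and without Aldrin-exposed replicate 3 and Non-exposed replicate 4 together. Leaving out 1 array gave 0 to 1, with 1 only without Non-exposed replicate 2 or 4. At an unadjusted p under 0.05 limma counted 3 members among 1515 probe sets in all, and that t-test 3 among 1364. The count of members with the higher mean, 16 of 24, was 13 to 21 when 1 array was left out, 22 with array weights or the GC-dependent background, and 9 of 15 without dim probe sets, where fewer were tested. For 14 of the 24 the sign held in every alternative run, among them all of ULBP1, where 11730617_at ran from 0.40 to 0.54, 11730618_x_at from 0.23 to 0.35 and 11730619_at from 0.19 (without Non-exposed replicate 1) to 0.42 (without Non-exposed replicate 3). The other 10, among them all of MICA and 11751712_a_at of ULBP3, changed sign. The replicate block left the 11730617_at difference at 0.46. With condition means removed, same-numbered arrays had correlations from -0.719 to 0.314, so the numbers were not taken as pairs. Before that removal, correlations between arrays were 0.9832 to 0.9969. Taken over 1 probe set a gene, the members' median of -0.01 became 0.10 with the mean over all probe sets of a gene, 0.11 with array weights or the GC-dependent background, 0.12 without Aldrin-exposed replicate 3, 0.11 without Non-exposed replicate 1 and 0.09 without Non-exposed replicate 3. Against the 95th percentile of the background controls, 2 probe sets lay above it on all arrays, in place of 0 above the highest.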
